A study of Mus musculus with 4 samples.

Results

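Th2 cells cultured with SH-2251 and control Th2 cells differed in their response to restimulation through the T cell receptor in a small set of genes. For each gene, the change on restimulation in SH-2251-treated cells was set against the change in control cells, and the difference between these responses was read on a log2 scale. The comparison was made for every gene with a signal well above background on each of the 4 arrays, which held for 11507 of the 18535 genes named on the array. Of these, 140 genes (1.22%) differed at least 2-fold between the responses, 85 of them upward (0.739%) and 55 downward (0.478%).

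The 4 samples were CD4 T cells from the spleens of female C57BL/6J mice, collected with a magnetic sorter, with 1 array for each condition. All were stimulated for 2 days through the T cell receptor β chain and CD28 with IL-2 at 2.5 ng/ml and IL-4 at 10 ng/ml, moved to fresh plates and kept in the same cytokines for 3 days. The control cells received no compound. The treated cells were cultured throughout with SH-2251, a small molecule that inhibits IL-5 production. Its dose is labelled as 1 µM in the first phase and 1 mM in the second, whereas the study's methods give another, lower dose as the default, so the dose on these arrays is not settled. The methods also name naive CD4 T cells as the starting population and add an antibody against IFN-γ. Cells of each kind were then left resting or were restimulated for 4 h on immobilized antibody against the T cell receptor β chain. The labels do not say how many mice each sample came from.

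A Th2 cell that meets antigen again signals through its receptor to the NFAT, AP-1 and NF-κB factors, which within hours switch on cytokine and chemokine genes and lower the transcripts of receptors and regulators used at rest. Restimulation also calls for new amino acids, and T cells raise their amino acid transporters and synthetic enzymes, many of them under ATF4, the factor that is translated when amino acids run short or unfolded protein builds up. IL-4, IL-5 and IL-13 are the cytokines that define the Th2 lineage, and IL-5 is the one that sustains eosinophils.

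A level is the log2 of the processed intensity, set to 0 at the array's 75th percentile. A response is the restimulated level minus the resting level, and the difference of responses is the SH-2251 response minus the control response. A difference of 1 is 2-fold. The technical SD beside a value combines the errors that the scanner software assigned to the spots of the 4 arrays. It covers error within the arrays only, and its median was 0.289. This median hardly varied among the brighter genes, so the technical SD is not read as a measured spread between spots. For probes spotted 10 times, the median SD between spots was far smaller, at 0.050 to 0.058. Those values are for single arrays and not for a difference of responses. By construction the technical SD falls as a probe has more spots, so a low value beside a gene need not mean lower noise. With 1 array in each condition there was no replicate spread, so no test was made. A change of at least 2-fold is a size, not a significance call. The 7 spike-in probes that were above background on all arrays had differences of responses between -0.03 and 0.02.

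T cell markers were well above background on every array for 11 of 11 genes, and their summed signal on a linear scale, relative to the 75th percentile, was between 529 and 675. B cell markers summed to between 36.1 and 49.4, with 10 of 12 above background on every array, while Pax5 and Ebf1 were below it throughout. The sum for NK and CD8 T cell markers was 64.9 and 95.4 in the resting and restimulated control cells. With SH-2251 it was 19.4 and 29.4. Of the 9 markers, 3 were above background on every array. At rest 2 of these 3 were higher with SH-2251, as were 2 after restimulation, so the lower sum was not shared by all markers. Myeloid, mast cell and red cell markers summed to at most 3.68 on any array, with 6 of 14, 2 of 8 and 4 of 7 above background throughout. The part of such cells in the results was not tested. In such bulk RNA, fewer cells of a type and less RNA per cell cannot be told apart.

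Both groups of cells responded to restimulation in much the same way. In control cells 750 genes (6.52%) rose and 796 (6.92%) were lowered at least 2-fold, and in SH-2251 cells 765 (6.65%) rose and 751 (6.53%) were lowered. The shared induced genes numbered 578, which is 77.1% of the control list and 75.6% of the SH-2251 list. The shared repressed genes numbered 544, or 68.3% and 72.4% of these lists. Across the 11507 genes the responses had a Pearson r of 0.918 and a Spearman rho of 0.897, given as a description because genes of the same arrays are not independent. The difference of responses lay within 1.5-fold for 94.6% of genes, and its SD over genes was 0.304. The largest control inductions were of the chemokines Ccl4 (8.46) and Ccl3 (8.27), the signalling regulator Rgs16 (8.10), the matrix protease Mmp10 (7.55) and the activin subunit Inhba (6.47). Their SH-2251 responses were 8.31, 7.36, 8.82, 7.79 and 8.17. The largest control repressions were of Smtnl2 (-3.65), Dapk2 (-2.92), Zfp395 (-2.74), Fbxo10 (-2.72) and Patl2 (-2.71), with SH-2251 responses of -3.19, -2.60, -2.53, -2.21 and -0.46.

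**Figure D1:**
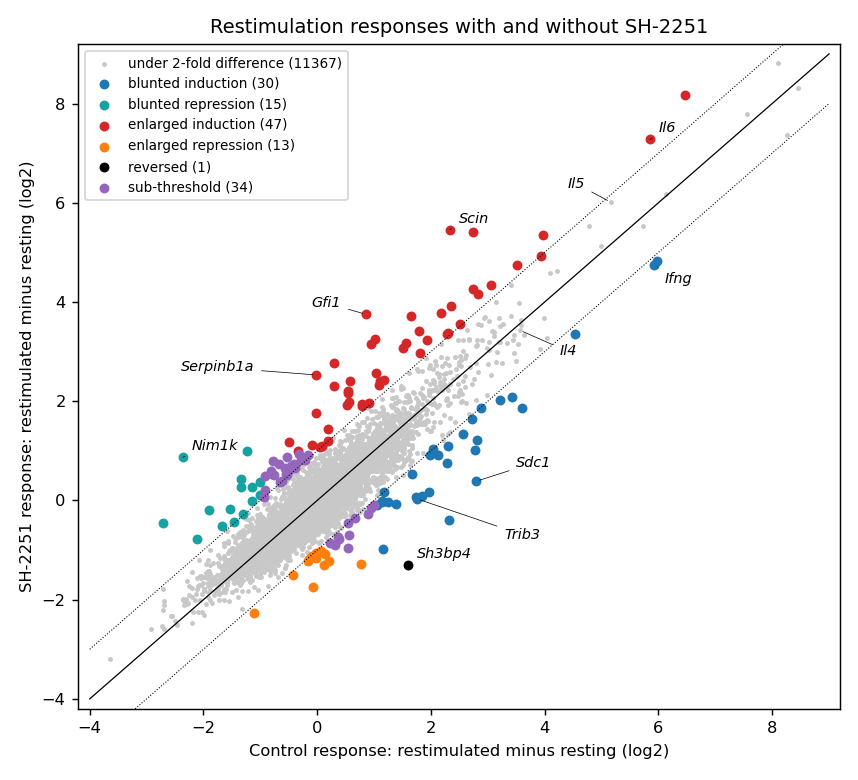
Each point is 1 of 11507 genes, with the control response on the x axis and the SH-2251 response on the y axis, both in log2 units; the solid line marks equal responses and the dotted lines a 2-fold difference. Most genes lie between the dotted lines, and the 140 coloured genes outside them are split by class, where sub-threshold means that neither response reached 2-fold.

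The altered genes fell into 6 classes. An induction of at least 2-fold in control cells was blunted in 30 genes, and in 17 of them the SH-2251 response was under 2-fold. A repression was blunted in 15 genes, all of which stayed under 2-fold with SH-2251. An induction was enlarged in 47 genes, of which 21 had no 2-fold response in control cells. A repression was enlarged in 13 genes, of which 12 had none in control cells. The response of 1 gene was at least 2-fold upward in control cells and at least 2-fold downward with SH-2251, and in the other 34 genes neither response reached 2-fold. Seen as levels, SH-2251 moved the resting level alone by at least 2-fold in 46 of the 140 genes and the restimulated level alone in 39. Both levels moved the same way in 12 genes and opposite ways in 3, and neither reached 2-fold in 40.

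Dim genes made up much of the list. The dimmest 25% of the measured genes held 84 of the 140, so that 2.92% of these dim genes were altered, against 0.765%, 0.695% and 0.487% in the brighter bins of the same size. By class, 13 of 15 blunted repressions, 9 of 13 enlarged repressions, 13 of 30 blunted inductions and 21 of 47 enlarged inductions came from it. Among all altered genes 110 exceeded 3 technical SD and 37 exceeded 3-fold. In the brighter bins the median technical SD was 0.290, 0.289 and 0.289, and 3 times such a value is under 2-fold. An altered gene with such a technical SD exceeded 3 of them by construction, so the count of 110 lends its call no support. Just inside the 2-fold line lay Pth (1.001), Cpeb1 (-1.003) and Pim2 (1.008), and just outside it Wdr89 (0.997), Trim9 (-0.991) and Ly6f (0.99). A background correction by normexp, with an offset of 50, gave 46 upward and 596 downward genes in place of 85 and 55. On the resting SH-2251 array, that fit put the mean background at -152, against 7.36 to 8.23 on the other arrays. Without the 12 spots of uneven local background there, it was 7.42 and the counts were 42 and 20. Of 79 altered genes followed through the settings, 46 stayed at 2-fold under normexp, where 14 turned direction, and 41 without the uneven spots, where 0 did.

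Amino acid supply and stress genes were among the blunted inductions, although the largest differences of that class lay in Palmd, Sdc1, Best1 and H2-T24. Of 29 measured genes on a list of ATF4 and endoplasmic reticulum stress targets, 20 were induced at least 2-fold in control cells (6.52% of all genes were) and 6 in SH-2251 cells (6.65% of all genes). The difference of responses was below 0 for 24 of the 29 (82.8%, against 47.5% of all genes), and 4 were altered downward and 0 upward, where the shares over all genes were 0.478% and 0.739%. The median response was 1.30 in control and 0.63 in SH-2251 cells, and the median difference was -0.46 against 0.01 over all genes. Over the settings tried, the list's median lay between -0.50 and -0.20, the value nearest 0 being that of normexp with the uneven spots. At rest, 26 of the 29 were higher with SH-2251, with a median of 0.41, and after restimulation 8 were, with a median of -0.09. For all genes these medians were -0.05 and -0.06. The resting levels therefore differed more between treatments than the restimulated levels did.

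Slc6a9, Slc1a4, Nupr1 and Aldh1l2, which are described with these genes, are not on the list and were named for the size of their differences. The promoters of the list members Trib3 and Asns and of Slc1a4 and Nupr1 are shown because their inductions were blunted together and their windows hold the same short motif. Each window runs from 250 bases before to 50 bases after a RefSeq transcription start, in build GRCm38.p6 and 5′ to 3′ on the gene's strand. Capitals mark a match to TGATGNAA, the composite site to which C/EBP and ATF factors bind, searched on both strands, so that it may read as TTNCATCA.
Trib3 (chr2:152344011-152344310, minus strand): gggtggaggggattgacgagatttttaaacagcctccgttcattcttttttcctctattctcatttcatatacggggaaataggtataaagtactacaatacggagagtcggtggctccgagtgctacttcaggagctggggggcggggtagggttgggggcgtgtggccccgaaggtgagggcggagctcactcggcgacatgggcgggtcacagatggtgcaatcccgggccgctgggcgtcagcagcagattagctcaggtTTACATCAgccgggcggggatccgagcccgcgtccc
Asns (chr6:7693160-7693459, minus strand): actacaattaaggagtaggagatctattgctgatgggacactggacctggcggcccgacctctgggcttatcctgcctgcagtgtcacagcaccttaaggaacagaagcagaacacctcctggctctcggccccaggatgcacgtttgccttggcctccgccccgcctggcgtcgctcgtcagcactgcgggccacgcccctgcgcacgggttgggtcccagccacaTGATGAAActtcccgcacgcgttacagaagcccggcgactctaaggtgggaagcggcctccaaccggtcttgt
Slc1a4 (chr11:20332664-20332963, minus strand): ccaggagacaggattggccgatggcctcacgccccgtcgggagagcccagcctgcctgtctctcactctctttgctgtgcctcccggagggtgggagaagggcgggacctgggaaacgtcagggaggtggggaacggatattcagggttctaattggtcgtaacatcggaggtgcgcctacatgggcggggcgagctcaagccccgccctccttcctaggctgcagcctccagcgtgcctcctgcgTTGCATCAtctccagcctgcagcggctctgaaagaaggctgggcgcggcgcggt
Nupr1 (chr7:126625421-126625720, minus strand): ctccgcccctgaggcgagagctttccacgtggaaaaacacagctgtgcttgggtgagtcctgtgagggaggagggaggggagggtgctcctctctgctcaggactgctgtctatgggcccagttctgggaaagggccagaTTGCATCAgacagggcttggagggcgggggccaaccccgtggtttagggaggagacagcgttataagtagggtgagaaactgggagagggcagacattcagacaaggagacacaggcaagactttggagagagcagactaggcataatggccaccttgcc
The match began 23 bases before the start in Asns, 110 before it in Nupr1, 4 before it in Slc1a4, and at base 15 of the transcript in Trib3. The motif was found in windows of 5 of the 22 blunted-induction genes that have one (22.7%), the fifth being Plek. It was found in 5 of 26 genes of the ATF4 and endoplasmic reticulum stress list (19.2%), Chac1 and Herpud1 among them, and in 3 of 11 enlarged repressions (27.3%). Of all 27025 genes with windows 4.51% held it, and of the genes measured here 2.81%. The AP-1 motif TGANTCA was searched in the same way and lay in windows of 5 of 33 enlarged inductions (15.2%), 2 of 22 blunted inductions (9.09%) and 4 of 26 genes of the ATF4 and endoplasmic reticulum stress list (15.4%). It lay in 8.97% of all genes with windows and 6.00% of those measured here. The composite motif was not found in the windows of Ddit3 or Slc6a9, and the Ddit3 window held an AP-1 match that began 242 bases before the start. A match is only a run of letters.

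Trib3, a pseudokinase that restrains ATF4 signalling, had levels of 3.51 in resting control, 5.26 in resting SH-2251, 5.27 in restimulated control and 5.29 in restimulated SH-2251 cells. Only the resting control cells were low, and the control response of 1.76 (3.39-fold) was 0.03 with SH-2251, a difference of -1.73 with a technical SD of 0.29. Another Trib3 probe gave -1.87. Ddit3, which encodes the stress-induced factor CHOP, had levels of 2.48, 3.78, 3.86 and 3.70 in the same order. Its control response of 1.38 was -0.08 with SH-2251, a difference of -1.46.

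The blunted inductions also included amino acid transporters. Slc6a9, a glycine transporter, read 1.29 in resting control, 3.22 in resting SH-2251, 4.07 in restimulated control and 4.25 in restimulated SH-2251 cells, so that a 6.85-fold induction became 2.04-fold. Slc1a4, a carrier of neutral amino acids such as serine and alanine, read -1.66, -0.16, 1.15 and 1.06, with a difference of responses of -1.59 and of -1.66 by another probe. Slc7a5, the large neutral amino acid transporter, read 1.65, 2.42, 3.96 and 3.52, a difference of -1.20. In these 3 genes the resting SH-2251 level stood above the resting control level, and the restimulated levels were within 0.44 of each other. Slc3a2, which pairs with Slc7a5, was induced by 1.55 in control and 1.47 in SH-2251 cells.

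Among the synthetic enzymes, Asns, asparagine synthetase, had levels of 5.19, 6.02, 7.17 and 6.94. Its response went from 1.99 to 0.91, a difference of -1.08 that was -0.70 by normexp with the uneven spots. The serine and one-carbon enzymes Psat1, Phgdh, Psph, Shmt2 and Mthfd2 were each induced at least 2-fold in control cells, and each stayed under 2-fold with SH-2251, with differences of responses between -0.79 and -0.46, all under 2-fold. Aldh1l2, a mitochondrial folate enzyme, read -3.57, -1.47, -1.73 and -1.38, a difference of -1.76 that was -0.90 by normexp without uneven spots. Nupr1, a small stress-induced chromatin protein, read 1.08, 2.68, 3.37 and 3.44, a difference of -1.53. Atf4 itself responded by 1.30 and 0.87, and Chac1, which degrades glutathione, by 2.67 and 1.74. The chaperone Hspa5 responded by 1.45 and 1.08. Xbp1, Pdia4, Sdf2l1 and Hyou1, which also belong to the folding arm, had differences of responses between -0.04 and 0.19. They were named after their values were seen. On the list 24 of 29 genes were below 0, so these lie at its upper end and do not stand for the folding arm.

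**Figure D2:**
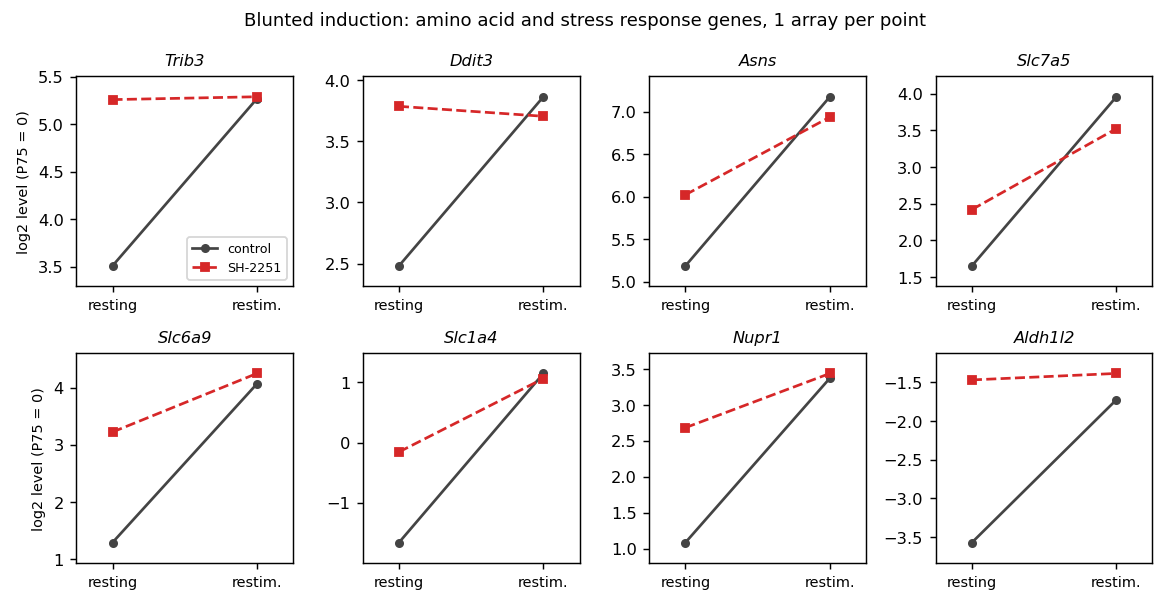
Log2 level (relative to the array's 75th percentile) of 8 blunted-induction genes in resting and restimulated cells, with control in grey circles and SH-2251 in red squares; each point is 1 array and each panel has its own y axis. The resting SH-2251 point stands above the resting control point in all 8 panels, and in 7 of the panels the restimulated points lie within 0.34 of each other, the exception being Slc7a5.

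Other blunted inductions lay in the restimulated level. Spp1, the secreted phosphoprotein osteopontin, had levels of 0.05 in resting control, -0.71 in resting SH-2251, 3.65 in restimulated control and 1.15 in restimulated SH-2251 cells. The 12.1-fold control induction was 3.64-fold with SH-2251, a difference of -1.73 with a technical SD of 0.10. Ifng, the Th1 cytokine, read -0.58, -1.04, 5.34 and 3.70, with an induction of 60.7-fold in control and 26.8-fold in SH-2251 cells. The difference for Ifng was -1.18 and another probe gave -1.19. Sdc1, a heparan sulphate proteoglycan, read -3.58, -2.66, -0.78 and -2.27, a difference of -2.41 that was -1.53 by normexp without uneven spots.

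Ccr3, the eotaxin receptor, was dim throughout, with levels of -3.62, -4.19, -0.91 and -2.54 and a difference of -1.07. Il31, a Th2 cytokine linked to itch, read -2.85, -0.71, 3.13 and 4.11. It was higher with SH-2251 in both states, and its response went from 5.98 to 4.83, a difference of -1.15 that was -0.51 by normexp without uneven spots and turned upward on the linear signal scale. Palmd, Best1, H2-T24 and Ush1g had differences of -2.71, -2.13, -1.81 and -1.67, all among the dimmest 25% of genes, and by normexp without uneven spots these were -1.25, -0.98, -0.97 and -0.78. H2-T24 belongs to a family of similar genes whose transcripts a probe may not separate. Of the 7 blunted inductions with another probe above background, that probe gave a negative difference in 7 and by at least 2-fold in 5, Plek (-0.67) and Cyb5r1 (-0.995) falling short.

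The enlarged inductions included genes whose resting level was lowered by SH-2251. Gfi1, a transcriptional repressor that Th2 cells use, had levels of 3.38 in resting control, -2.01 in resting SH-2251, 4.24 in restimulated control and 1.75 in restimulated SH-2251 cells. Both SH-2251 arrays were below both control arrays. Its response was 0.86 in control and 3.75 in SH-2251 cells, a difference of 2.90 on the log2 scale that turned downward on the linear scale.

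Penk, which encodes the enkephalin precursor, read 6.05, 3.67, 8.23 and 7.44, and its difference of responses was 1.59, with 1.55 by another probe. Inhba, the activin A subunit, read 0.57, -1.76, 7.04 and 6.41, a difference of 1.71. Gzmb, the cytotoxic protease granzyme B, read 7.31, 5.12, 8.49 and 7.55, a difference of 1.26. In each of these genes the SH-2251 level was the lower one in both states, and the difference turned downward on the linear scale. The same turn was found for Fosl1 (1.29, but -0.26 by normexp with the uneven spots), an AP-1 subunit, and Hbegf (1.07), an EGF receptor ligand. Among all 47 enlarged inductions, 9 turned downward on the linear scale.

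Isg15, an interferon-stimulated ubiquitin-like protein, read 0.69 in resting control, -1.28 in resting SH-2251, 2.34 in restimulated control and 2.42 in restimulated SH-2251 cells. The restimulated levels were close and the resting levels were not, which gave a difference of 2.07. Bhlhe40, a factor that supports cytokine production, read 1.25, 0.26, 3.18 and 3.49, a difference of 1.30. Dhrs3, a retinal reductase, read -0.69, -2.49, -1.19 and -1.31, with responses of -0.50 and 1.18. Hdc, which makes histamine and is on the mast cell list, had a difference of 1.27 that was -0.46 by normexp with the uneven spots and above 0 without them. Over the 28 measured interferon-stimulated genes, 2 were altered upward and 0 downward, where the shares over all genes were 0.739% and 0.478%. The list's median difference was 0.17, and the value of Isg15 lay far above it.

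In 3 genes the levels crossed by at least 2-fold on each side, with SH-2251 below control at rest and above it after restimulation. Scin, an actin-severing protein, read -2.41 in resting control, -3.57 in resting SH-2251, -0.08 in restimulated control and 1.88 in restimulated SH-2251 cells, a difference of 3.13. Ramp3, a partner of the calcitonin receptor-like receptor, read 0.50, -0.96, 3.25 and 4.45, a difference of 2.67. Cxcr6, a homing chemokine receptor, read 3.53, 2.49, 4.54 and 5.74, a difference of 2.23. By normexp without uneven spots the difference for Scin was 2.32, and no replicate array was there to test any crossing.

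A further set was raised at least 2-fold by SH-2251 in restimulated cells, and all but Ifi211 and Ifi204 only there. Serpinb1a, an inhibitor of neutrophil-type proteases, read 0.01 in resting control, 0.00 in resting SH-2251, -0.01 in restimulated control and 2.53 in restimulated SH-2251 cells. Restimulation left it flat in control cells (0.988-fold) and raised it 5.77-fold with SH-2251. Its relative Serpinb1c, on a dim probe, read -4.33, -4.36, -4.04 and -1.58, a difference of 2.49. By normexp the difference was 1.31 without uneven spots and 0.31 with them. It was 1.20 as the mean of its probes, a mean that takes in probes not above background on all arrays. The 2 genes are close copies, and the probes may not tell their transcripts apart. Cbr3, a carbonyl reductase, read -2.53, -2.68, -1.58 and 0.47, a difference of 2.20 that was 0.93 by normexp with the uneven spots and 1.64 without them. Il6, an inflammatory cytokine, read -1.80, -1.60, 4.05 and 5.68, a difference of 1.42 with a technical SD of 0.09. Ifi211 and Ifi204, from a family of similar interferon-inducible genes, were higher with SH-2251 in both states and had differences of 1.83 and 1.31.

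**Figure D3:**
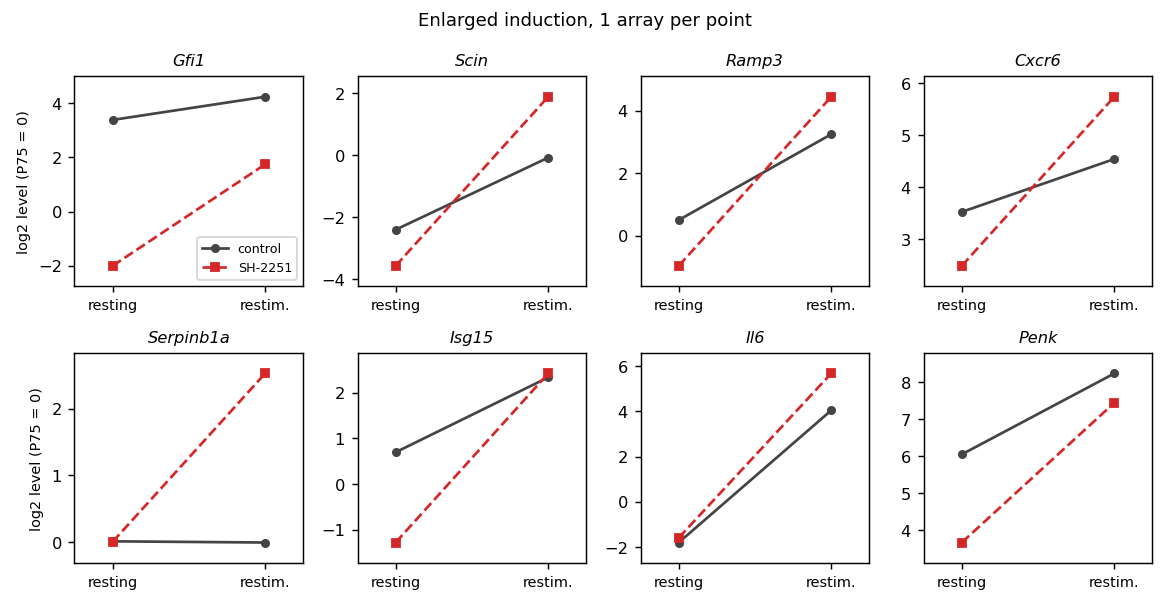
Log2 level of 8 enlarged-induction genes in resting and restimulated cells, control in grey circles and SH-2251 in red squares, 1 array per point, with a y axis for each panel. The lines cross by at least 2-fold on each side in Scin, Ramp3 and Cxcr6. SH-2251 lies below control in both states in Gfi1 and Penk, and Serpinb1a differs only in the restimulated cells.

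Repressions were altered in fewer genes. Tgfb3, a TGF-β ligand whose repression was blunted, had levels of 2.59 in resting control, -2.48 in resting SH-2251, 0.69 in restimulated control and -2.67 in restimulated SH-2251 cells. It was low in SH-2251 cells in both states and changed little there, so that a control response of -1.90 became -0.19, a difference of 1.71. Tha1, a threonine aldolase, read 0.39, -0.85, -1.28 and -1.37, a difference of 1.15. Patl2 read -0.60, -3.53, -3.31 and -3.99, a difference of 2.25 that was 1.26 by normexp without uneven spots and 0.34 with them.

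The other named blunted repressions were dim, and their differences ran from 1.14 (Zfp111) to 3.23 (Nim1k). The value of Nim1k was 1.29 by normexp without uneven spots and 0.37 with them. It was 0.79 as the mean of its probes, a mean that takes in probes not above background on all arrays. The values of 0.37 and 0.79 are under 2-fold. For Dio2, the enzyme that activates thyroid hormone, the levels were -3.22, -1.92, -4.46 and -0.93, with the SH-2251 level the higher one in both states. Its difference of 2.23 was 1.15 by normexp without uneven spots and 0.73 with them. Another probe was available for Il17rc and Nav1. It gave 0.24 and 0.03 where the brighter probe gave 1.63 and 1.34, so these calls rest on 1 probe each. Under normexp with the uneven spots the differences for Il17rc, Zfp111 and Pcp4l1 turned below 0 (-0.36, -0.49 and -0.13), and without these spots none of the 3 did. Without the dimmest 25% of genes, 2 blunted repressions remained in the count.

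Among the enlarged repressions, S1pr1, the receptor that leads lymphocytes out of lymph nodes, read 2.01 in resting control, 1.38 in resting SH-2251, 0.90 in restimulated control and -0.88 in restimulated SH-2251 cells. It was the 1 gene of the class whose control response reached 2-fold (-1.11), and its SH-2251 response was -2.26. The difference of -1.16 turned slightly upward on the linear scale (0.0956 in units of the 75th percentile). S1pr1 was the 1 altered gene among 25 measured on the quiescence and egress list, where 1.22% of all genes were altered. Plekhh3 read -1.15, 1.96, -0.38 and 0.67, a difference of -2.05, and Aqp3, a water and glycerol channel, read 0.57, 1.68, 0.41 and 0.46, a difference of -1.07. Tgm5, Tcea3, Pitx3, Cnbd2 and Olfr821 were dim and higher in resting SH-2251 cells than in resting control cells, with differences between -1.66 and -1.05. Over the settings tried, the values nearest 0 were -1.03, -0.13, -0.46, -0.65 and -0.89 in the same order. All of these but that of Tgm5 are under 2-fold. For Pde11a another probe gave 0.43 where the brighter probe gave -1.07.

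The response was at least 2-fold in opposite directions in 1 gene. Sh3bp4, an endocytic adaptor, was dim, with levels of -4.05 in resting control, -1.84 in resting SH-2251, -2.46 in restimulated control and -3.14 in restimulated SH-2251 cells. Restimulation raised it by 1.59 in control cells and changed it by -1.30 in SH-2251 cells, a difference of -2.89 with a technical SD of 0.37. No other probe of Sh3bp4 was above background on all arrays. In the normexp correction without uneven spots the difference was -1.54, and 0 genes were 2-fold in opposite directions.

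Among genes in which neither response reached 2-fold, Icos, a costimulatory receptor, read 6.66 in resting control, 7.09 in resting SH-2251, 6.21 in restimulated control and 7.78 in restimulated SH-2251 cells. It moved down in control cells (-0.46) and up in SH-2251 cells (0.69), a difference of 1.15, and another probe gave 1.19. Pim2, a kinase induced by cytokines, had responses of -0.93 and 0.08, and Hlx, a homeobox factor of T cells, of -0.53 and 0.51. Tgm2, a transglutaminase controlled by retinoic acid, read 6.46, 1.75, 6.14 and 2.67, far lower with SH-2251 in both states, and its difference was 1.24. The remaining named genes of this class were mostly among the dimmest 25%, including Mpeg1 (-1.02), the one myeloid marker that was altered.

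**Figure D4:**
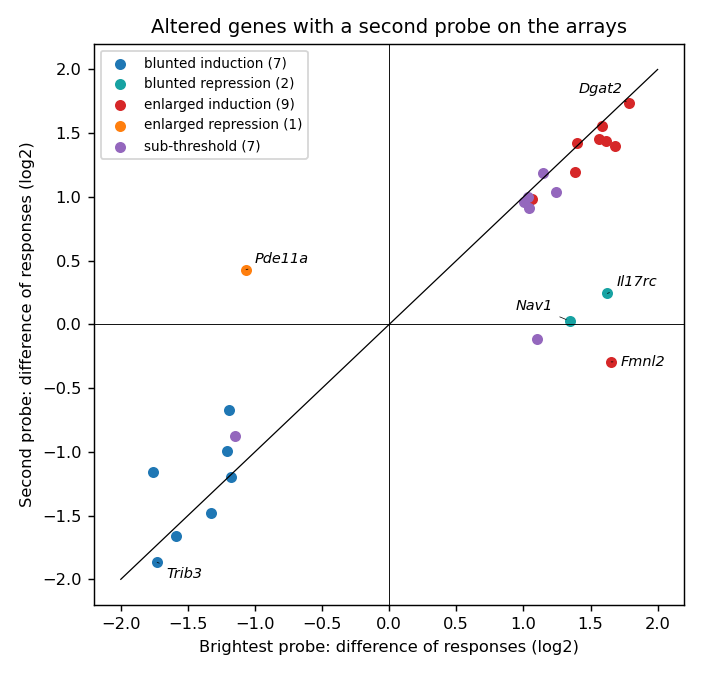
Difference of responses (log2) by the brightest probe, on the x axis, and by the second brightest, on the y axis, for the 26 altered genes that have both above background on all 4 arrays; the diagonal marks equal values. The signs match for 23 of the 26, and Fmnl2, Pde11a and Crhr1 lie in the opposite quadrants.

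A second probe gave the same direction in 23 of the 26 altered genes that had one (88.5%), and at least 2-fold in 14 (53.8%). Over all 4039 genes with a second probe, the directions matched in 70.8% and the second probe reached 2-fold in 1.11%. Probes of a gene share the RNA and the array, so this speaks to the probe and not to the sample. The exceptions were Fmnl2 (-0.29 against 1.65), Pde11a and Crhr1 (-0.11 against 1.10).

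The Th2 cytokine genes that define the lineage responded in both treatments. Il4 had levels of 4.69 in resting control, 4.59 in resting SH-2251, 8.25 in restimulated control and 8.02 in restimulated SH-2251 cells, and a difference of responses of -0.13. Il5 read 1.04, -2.82, 6.20 and 3.19, lower with SH-2251 in both states. Its response was 5.16 in control and 6.01 in SH-2251 cells, a difference of 0.85 that did not reach 2-fold and that was -0.66 by normexp with the uneven spots, 0.01 without them and below 0 on the linear scale.

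Il13 read -1.49, -2.81, 3.28 and 2.72, a difference of 0.75 that was -0.34 by normexp with the uneven spots and below 0 on the linear scale. Il10 and Il24 had differences of 0.73 and 0.75. Il9 was above background only in restimulated SH-2251 cells and so has no difference of responses. The Th2 cytokine list is not confined to Il4, Il5 and Il13 and also holds genes such as Il6 and Il31. All 7 of its measured genes were induced at least 2-fold in both treatments. The shares over all genes were 6.52% in control and 6.65% in SH-2251 cells. Of the 7, 1 (Il6) was altered upward and 1 (Il31) downward, against 0.739% and 0.478% of all genes. The list's median difference was 0.75, and it lay between 0.19 and 0.76 over the settings tried. Its median SH-2251 minus control level was -0.60 at rest and -0.23 after restimulation. The factor Gata3, which directs Th2 differentiation, had levels of 5.39, 5.22, 5.87 and 5.83 and a difference of 0.14.

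Lists of the wider restimulation programme held few altered genes, and with 1.22% of all genes altered a count of 0 or 1 in lists of these sizes is near the overall share. Of 21 measured immediate-early EGR and AP-1 genes, 11 were induced in control and 12 in SH-2251 cells, 17 had a difference above 0, and Fosl1 was the 1 altered gene. Of 37 MYC and ribosome biogenesis genes, 20 and 19 were induced, and the median difference was -0.01. NF-κB components and regulators held 0 altered genes of 22, with a median of 0.19. The list of 29 receptor complex and proximal signalling genes also held 0, with a median of 0.04. The altered genes among 18 chemokine receptors included Cxcr6 upward and Ccr3 downward.

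Some lists leaned one way without any member differing 2-fold. For integrins and adhesion, 19 of 20 genes had a difference above 0, with a median of 0.34. Icam1, a ligand of lymphocyte integrins, responded by 1.47 and 2.31, and Selplg, the P-selectin ligand, by -1.22 and -0.62. For cell cycle and DNA replication, 34 of 40 were below 0, with a median of -0.16 that was 0.09 by normexp with the uneven spots, and the genes repressed at least 2-fold numbered 4 in control and 12 in SH-2251 cells, where 6.92% and 6.53% of all genes were. Cdc20, which activates the mitotic ubiquitin ligase, responded by -0.74 and -1.40, and Plk1, a mitotic kinase, by -0.95 and -1.30. B cell markers were above 0 in 10 of 10 measured genes, with a median of 0.39, and Cd74, the invariant chain, responded by 0.22 and 1.02. Of all genes, 52.5% were above 0.

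**Figure D5:**
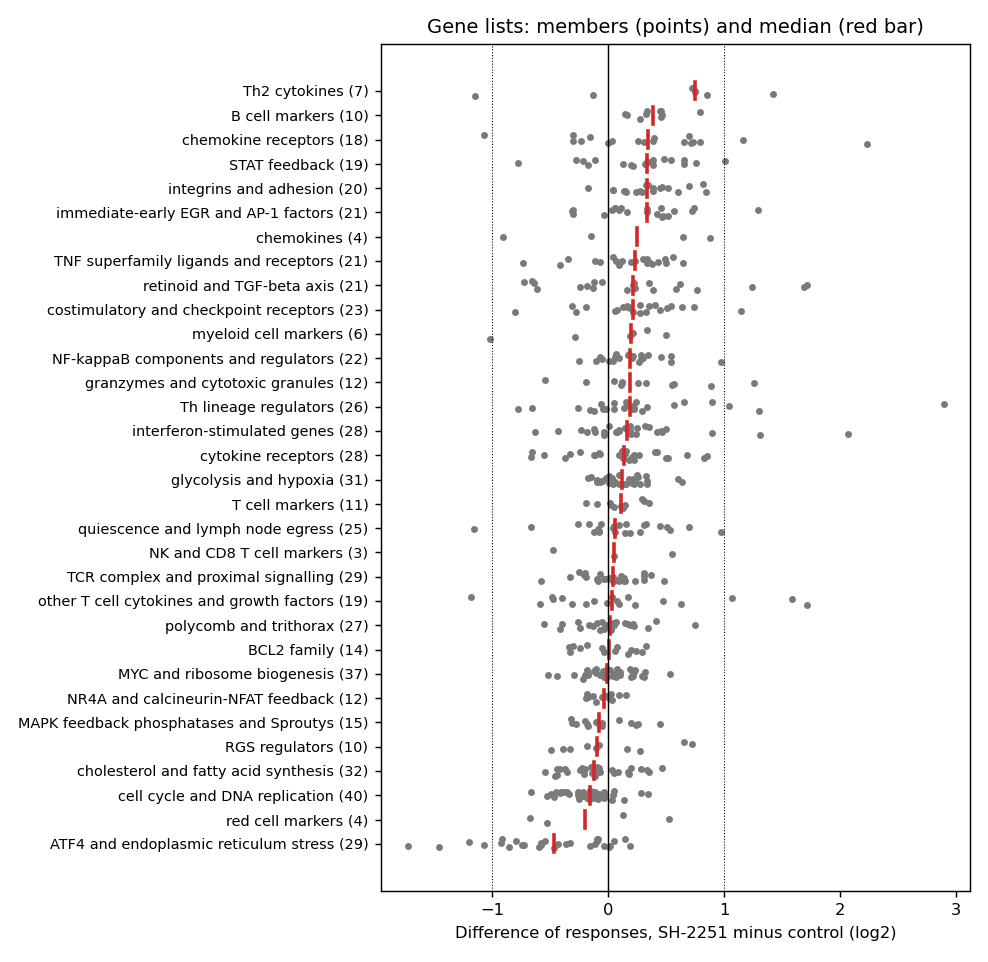
Difference of responses (log2, x axis) for each measured member of 32 gene lists (grey points, vertical scatter for legibility) and the median of each list (red bar), with the number measured in brackets; dotted lines mark 2-fold. The ATF4 and endoplasmic reticulum stress list has the lowest median (-0.46) and the Th2 cytokine list of 7 genes the highest (0.75). The Th2 cytokine list is not confined to Il4, Il5 and Il13. Over the settings tried, the Th2 cytokine median lay between 0.19 and 0.76. Most medians lie near 0.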

How the data were processed

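RNA of the 4 samples was labelled with Cy3 and hybridised to single-colour whole mouse genome arrays, all on 1 slide and read in 1 scan, so slide and scan do not differ between conditions. The authors deposited scanner files written by Agilent Feature Extraction (10.7 in the submitters' processing notes, 10.7.3.1 in the files) with processed intensity values, background-corrected by that software. A deposited table of log2 values from the Subio Platform was matched to them: for at least 99.6% of probes it equalled the log2 intensity minus a constant, within 0.01, with a 75th percentile of 0.00 on each array, and it served as an alternative.

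Here the deposited intensity of each non-control spot was put on the log2 scale and its array's 75th percentile (499 to 614 intensity units) was taken off. Between 77 and 106 outlier spots per array were left out, spots of a probe were averaged, and 56.0% to 56.6% of probes were well above background. Of 41174 probes, 27190 (66.0%) matched 1 RefSeq gene of GRCm38.p6 by accession. The arrays were designed on another build, so no probe coordinates are given. Each gene was read from its probe of highest mean log2 signal. Of the 18535 genes, 5384 were above background on no array and 1644 on 1 to 3, and these have no difference of responses. Classes used 2-fold limits for each response and for their difference.

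Members and gene lists were chosen with earlier results of these data known. The genes followed as named genes are the 12 largest differences in each class, the reversed gene and altered members of 33 lists. They also include Il4, Il5, Il13, Il9, Ifng, Gata3, Gfi1 and Ccr3, and the 5 largest control responses each way. Not all of them are described in the text. Other members of the lists, Plek, Cyb5r1, Fmnl2, Crhr1 and the genes at the 2-fold line were named after their values were seen, and genes with only predicted symbols were counted but not named. A named-gene result is not reported here. The alternatives changed scaling, background correction, filter, probe choice, threshold and log offset. The arithmetic was tested on simulated data. The software was R 4.3.3 (limma 3.58.1 for normexp, quantile and loess) and Python 3.11.15 (numpy 2.4.6, pandas 2.3.3, matplotlib 3.10.9).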

Additional observations from a re-analysis of the deposited data

Results flagged for a closer look

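In 4 genes an effect of at least 2-fold in each of the conditions compared ran in opposite directions, and with 1 array per condition the difference was not tested. Sh3bp4 was raised by restimulation in control cells and lowered in SH-2251 cells, a difference of responses of -2.89. SH-2251 lowered the resting level and raised the restimulated level of Scin, with a difference of 3.13, of Ramp3, with 2.67, and of Cxcr6, with 2.23.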

How the results depend on the processing

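No paired analysis was possible because each condition had 1 array, and no array could be left out for the same reason. Depth is not given by arrays: signal over background limits them, and the dimmest 25% of genes carried 84 of the 140 calls. Scaling by each array's median, quantile normalization, the 75th percentile of probes above background, loess, the authors' values and keeping outlier spots kept every count by class within 1.5 times, except that 1 or 2 genes were reversed, and at least 78 of 79 altered named genes at 2-fold in the same direction. Adding a signal of 50 kept 48 of the 79 at 2-fold, normexp 46, normexp without uneven background (added after the data were seen) 41, and the mean of all probes 64.

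Counts are given as upward, downward, blunted induction, blunted repression, enlarged induction and enlarged repression, where they moved. They were 350, 275, 139, 97, 190 and 80 at 1.5-fold and 24, 13, 10, 3, 17 and 1 at 3-fold. With 1 array above background and a floor they were 203, 225, 120, 73, 94 and 65 (Pearson r 0.865), and with no filter 764, 942, 358, 269, 321 and 304 (r 0.663), by construction adding dimmer genes. Without the dimmest 25% they were 33, 23, 17, 2, 26 and 4 (r 0.943). Adding 50 gave 45 upward, 25 downward, 16 blunted inductions, 4 blunted repressions and 3 enlarged repressions. Normexp gave 46 upward, 596 downward, 3 blunted repressions and 298 enlarged repressions (r 0.768). Without uneven spots it gave 42, 20, 14 blunted inductions, 3 blunted repressions and 3 enlarged repressions. The mean of all probes gave 90 downward and 26 enlarged repressions, and counting each probe gave 85 downward.

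Directions turned as follows. Without the uneven background spots, 0 of the 79 altered named genes turned under normexp. With them the difference was -0.37 for Cyp46a1, -0.26 for Fosl1, -0.46 for Hdc, -0.39 for Hsd3b4, -0.19 for Ifnlr1, -0.36 for Il17rc, -0.42 for Kcng2, -0.18 for Mok, -0.45 for Olfr441, -0.39 for Olfr933, -0.13 for Pcp4l1, -0.23 for Scrt1, -0.19 for Txndc2 and -0.49 for Zfp111. It was -0.91 for Mok by the mean of all probes, a mean that takes in probes not above background on all arrays. On linear signals, in units of the 75th percentile, it was -0.170 for Fosl1, -5.35 for Gfi1, -47.8 for Gzmb, -0.548 for Hbegf, 8.10 for Il31, -44.9 for Inhba, -73.6 for Penk and 0.0956 for S1pr1. Turns of list medians are given where the main median was at least 0.1 in size. Smaller medians also changed sign, such as that of NK and CD8 T cell markers (-0.22 to 0.11 over settings). List medians turned under normexp for chemokines (-0.67), cholesterol and fatty acid synthesis (0.083), cell cycle (0.087) and myeloid markers (-1.01). The myeloid median was -0.032 without uneven spots and -0.094 with no filter. The chemokine median was -0.15 with a floor and without the dimmest 25%, and the red cell median 0.13 with a floor and 0.14 with no filter. For the turns outside normexp and linear signals the cause was not tested.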
